A study of Homo sapiens with 4 samples.

Results

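The 4 mature arms of the hairpins miR-221 and miR-222 (hsa-miR-221-3p, hsa-miR-221-5p, hsa-miR-222-3p and hsa-miR-222-5p) were followed in small RNA libraries from extracellular vesicles (EVs). They were chosen by name, as both arms of both hairpins, out of 539 miRNAs listed for both replicates and 1619 features listed for either. All 4 had reads in all 4 libraries, so none was lost to a filter on low values. The donor cells of the EVs were MDA-MB-231, a human cell line established from triple-negative breast cancer, labelled as WT and as an epithelial cell. The cells had been grown in DMEM with 10% fetal bovine serum, and before collection they spent 12 h either in EV-free DMEM (231 EV) or in glucose-free medium (231 -G EV). In both groups EVs were pelleted at 110000 × g for 70 min, with 2 libraries a group.

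The replicate number also named the library preparation. For both libraries of replicate 1 the RNA was treated first to take off modifications that block adapter ligation or reverse transcription, and inserts of 14 to 40 nt were selected. Both libraries of replicate 2 came from a NEBNext small RNA kit. Replicate and preparation cannot be told apart. The pair of libraries in replicate 1 held 18397 (231 EV) and 15597 (231 -G EV) reads, and the pair in replicate 2 held 224966 and 170894. Levels are given as CPM, the reads of a miRNA scaled to a library of 1000000 reads. A count of 0 allows up to 3 reads, which in replicate 1 meant 163 and 192 CPM and in replicate 2 meant 13.3 and 17.6 CPM. Without molecular identifiers, PCR reads are not separate molecules, and the intervals, limits and read tests below hold for counting error alone. The labels do not say that the replicates came from separate cultures, so p-values across replicates measure only the spread between these libraries, which may be technical.

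A miRNA hairpin is cut by Drosha and Dicer into a duplex of a 5p and a 3p arm. Usually the guide arm is kept in Argonaute, pairs with mRNAs through its seed and lowers their output, while the passenger arm is mostly degraded. The hairpins of miR-221 and miR-222 are neighbours on the X chromosome, and their 3p arms are the usual guides. Both 3p arms are known to repress CDKN1B (p27), an inhibitor of the cell cycle, and KIT, a receptor tyrosine kinase, and they are known to be abundant in triple-negative and basal-like breast cancer cells and to target the mRNA of the estrogen receptor ESR1. EVs carry miRNAs out of the cell and can hand them to neighbouring cells.

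The mature sequences are shown because the seed, which sets most of the targets, is what joins the 3p arms and separates them from the 5p arms. They are from RefSeq (GRCh38.p14, 5′ to 3′, all from the minus strand of chromosome X), with the seed, bases 2 to 8, in capitals. A sequence was matched for 3 of the 4 arms, and hsa-miR-221-5p is named only.
hsa-miR-221-3p: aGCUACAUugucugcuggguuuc
hsa-miR-222-3p: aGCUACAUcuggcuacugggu
hsa-miR-222-5p: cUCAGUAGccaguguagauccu

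The 3p arms, of 23 and 21 nt, were identical over their first 8 bases. Over the 21 positions compared from the 5′ end, 11 matched and 10 differed, all between positions 9 and 20. With the base of hsa-miR-221-3p first, the differences were U9C, G10U, U11G, C12G, U13C, G14U, C15A, U16C, G17U and U20G. Of the 2545 mature miRNAs in the RefSeq table, only these 2 held the seed GCUACAU. The seed of hsa-miR-222-5p, UCAGUAG, was held by 1 mature miRNA of that table, itself. The 3p arms therefore form a closed seed family in this table, and reads can be added up over it.

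Hsa-miR-221-3p lies at chrX:45746180-45746202, hsa-miR-222-3p at chrX:45747036-45747056 and hsa-miR-222-5p at chrX:45747073-45747094. Their hairpins MIR221 (chrX:45746157-45746266) and MIR222 (chrX:45747015-45747124) are 110 bp long and stand 748 bp apart on the same strand. Both lie inside the long noncoding host gene MIR222HG (chrX:45745211-45770274, minus strand, GENCODE 29 on GRCh38). Neither overlapped an exon of its 2 annotated transcripts, so both are intronic, and MIR221 is 56 bp from the nearest exon.

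To place the 4 arms in the EV cargo, reads and ranks were set out library by library, in the order 231 EV and 231 -G EV of replicate 1, then 231 EV and 231 -G EV of replicate 2. Hsa-miR-221-3p, the guide arm of miR-221, had 11, 6, 4346 and 4463 reads. As levels these were 598 CPM (95% Wilson interval 334 to 1070), 385 CPM (176 to 839), 19318 CPM (18758 to 19896) and 26116 CPM (25370 to 26882). It ranked 74th and 116th in replicate 1 but 10th and 6th in replicate 2, where it held 1.93% and 2.61% of the reads. Both libraries of replicate 2 were high and both of replicate 1 were low, so the media overlapped and the preparations did not.

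Hsa-miR-222-3p, the guide arm of miR-222, had 7, 4, 399 and 465 reads in the same order. Its levels were 380 CPM (184 to 785), 256 CPM (99.7 to 659), 1774 CPM (1608 to 1956) and 2721 CPM (2485 to 2979), at ranks 94, 152, 52 and 44. It was below its seed partner in every library, by a small margin in replicate 1 and by a wide one in replicate 2. Again the libraries split by replicate and not by medium.

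The passenger arms were rare throughout. Hsa-miR-221-5p had 2, 3, 44 and 24 reads, which came to 109 CPM (29.8 to 396), 192 CPM (65.4 to 565), 196 CPM (146 to 263) and 140 CPM (94.4 to 209). These 4 intervals overlapped one another, so its level was not separated between any pair of libraries. Hsa-miR-222-5p had 5, 2, 16 and 2 reads, or 272 CPM (116 to 636), 128 CPM (35.2 to 467), 71.1 CPM (43.8 to 116) and 11.7 CPM (3.21 to 42.7). It was the only member whose highest level was in replicate 1, and in 231 -G EV of replicate 2 it lay at 2 reads, under the limit of 3.

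**Figure D1:**
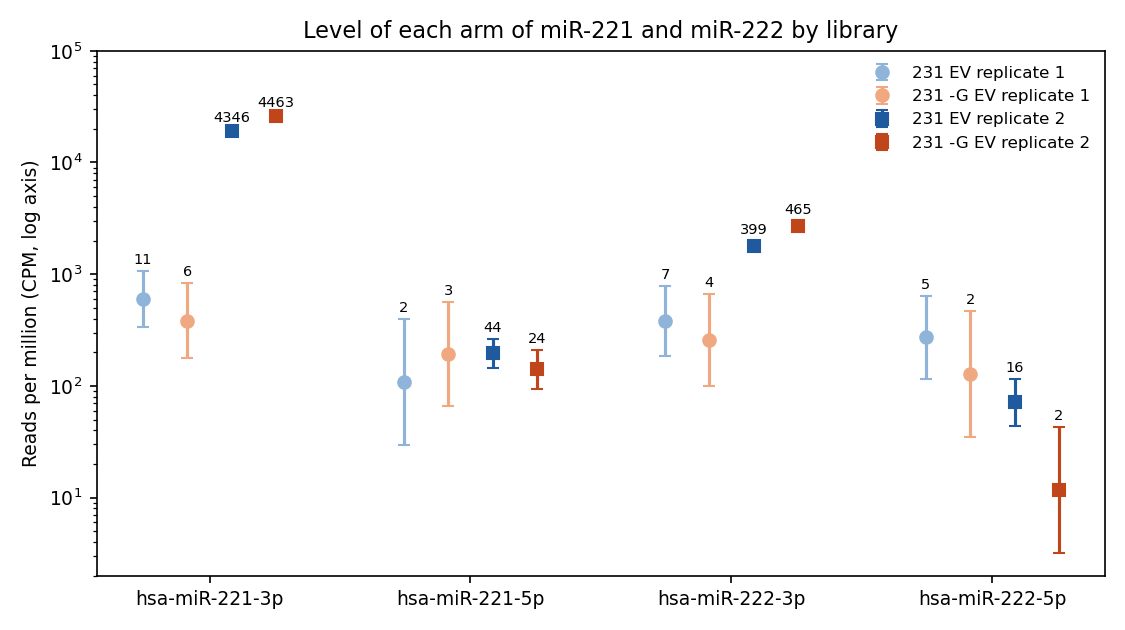
Level of each arm in each library, in CPM on a log axis, with 95% Wilson intervals as bars, circles for replicate 1, squares for replicate 2 and the number of reads above each point. Hsa-miR-221-3p stood at 19318 and 26116 CPM in replicate 2 and at 598 and 385 CPM in replicate 1, and hsa-miR-222-5p fell to 2 reads in 231 -G EV of replicate 2.

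Within a library, the order of the arms was hsa-miR-221-3p, hsa-miR-222-3p, hsa-miR-221-5p and hsa-miR-222-5p in both libraries of replicate 2 and in 231 -G EV of replicate 1. In 231 EV of replicate 1 the 5p arms stood in the opposite order, on 2 and 5 reads. In replicate 2 the intervals of all 4 arms were apart from each other in both libraries. In replicate 1 neighbours in the order overlapped in both libraries, so that order was not resolved. Summed over the 4 arms, the family took 25, 15, 4805 and 4954 reads, or 0.136%, 0.0962%, 2.14% and 2.90% of each library.

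Compared with other miRNAs of the same library, hsa-miR-221-3p stood in replicate 2 among the abundant miRNAs. In 231 EV it lay under hsa-let-7b-5p (4708 reads, interval apart) and above hsa-miR-103a-3p (4221 reads, interval overlapping). In 231 -G EV it lay under hsa-miR-125b-5p (8761 reads, interval apart) and above hsa-miR-100-5p (4264 reads, interval overlapping). Hsa-miR-222-3p was not separated from either neighbour, which were hsa-let-7c-5p with 408 reads and hsa-miR-30c-5p with 389 in 231 EV, and hsa-miR-7-5p with 479 and hsa-miR-182-5p with 427 in 231 -G EV. In replicate 1 no neighbour was separated. The miRNAs next above hsa-miR-221-3p in 231 EV were hsa-let-7d-5p, hsa-miR-218-5p and hsa-miR-5010-3p with 12 reads each, and the other steps in rank were ties of 4 to 32 miRNAs.

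**Figure D2:**
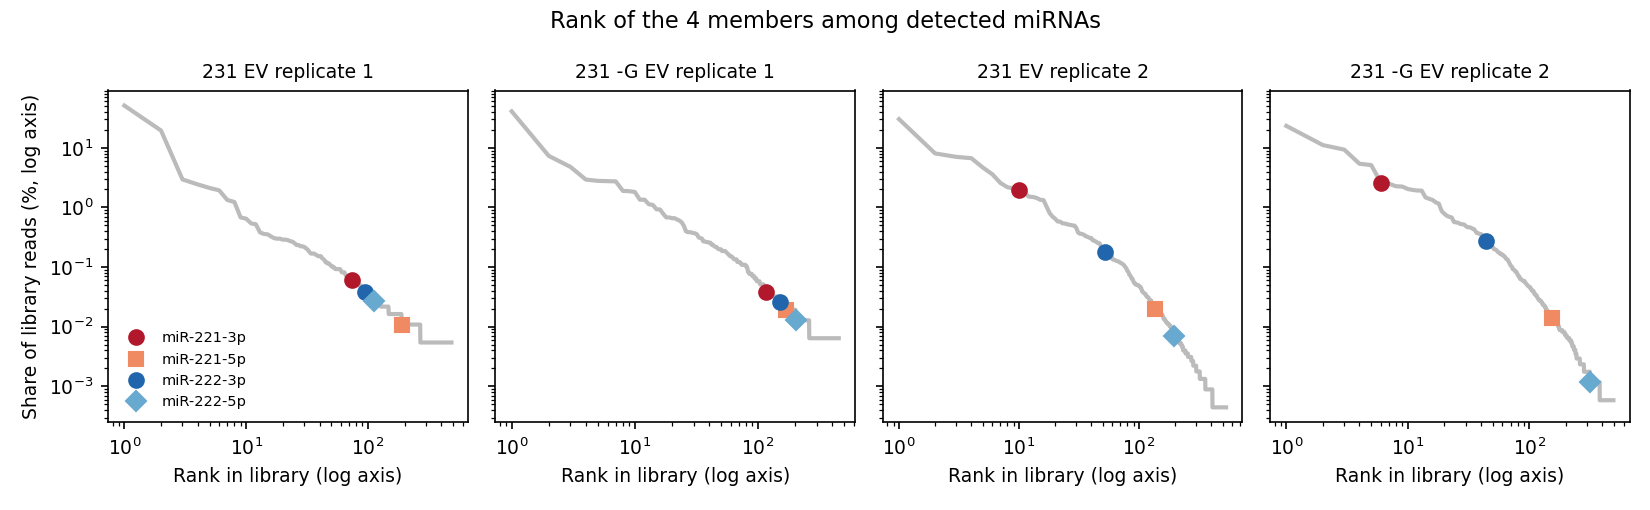
Share of library reads (%, log axis) against rank (log axis) for every detected miRNA as a grey line, one panel a library, with the 4 arms as coloured symbols. The 3p arms of miR-221 and miR-222 sat at ranks 74 and 94 in 231 EV of replicate 1 and at ranks 10 and 52 in 231 EV of replicate 2, while hsa-miR-222-5p was at ranks 113 and 197 and hsa-miR-221-5p at ranks 189 and 137 in the same libraries.

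Counted as a seed family, GCUACAU held 18, 10, 4745 and 4928 reads, or 0.0978%, 0.0641%, 2.11% and 2.88% of the library. Among seeds of detected miRNAs with a RefSeq sequence it ranked 39th of 363 and 62nd of 332 in replicate 1, and 10th of 390 and 8th of 364 in replicate 2. MiRNAs with a RefSeq sequence took 78.5% and 54.6% of the reads in replicate 1 and 97.1% and 96.9% in replicate 2. In replicate 2 the seed was thus among the 10 best represented of the EV libraries in both media.

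The level in replicate 2 over that in replicate 1 was formed for each arm within a medium, and was ranked among the 154 miRNAs above 0 in all 4 libraries, which leaves out any miRNA at 0 in replicate 1, whatever its ratio. For hsa-miR-221-3p it was 32.3 (exact 95% interval 18.0 to 64.8) in 231 EV and 67.9 (31.2 to 185) in 231 -G EV, the 6th and 4th highest of 154. The medians over all 154 were 1.62 and 0.867. For hsa-miR-222-3p the ratio was 4.66 (2.24 to 11.7) and 10.6 (4.12 to 39.1), ranked 45th and 18th. The intervals of the 3p arms were apart in 231 EV and overlapped in 231 -G EV. These ratios used library totals, and hsa-miR-182-5p held 51.0% of the reads in 231 EV of replicate 1. Without its reads the summed 3p arms took 0.200% of that library in place of 0.0978%. Every ratio of 231 EV would then be lower.

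Hsa-miR-221-5p had 2 and 3 reads in replicate 1, at or under the limit of 3, so only the exact intervals of its ratio are given. They ran from 0.469 to 15.3 in 231 EV and from 0.222 to 3.79 in 231 -G EV, and both held 1. For hsa-miR-222-5p the ratio was 0.262 (0.0916 to 0.913) in 231 EV, on 5 reads in replicate 1. In 231 -G EV it had 2 reads in each replicate, under the limit of 3, so no ratio is given. Both guide arms were thus above their level of replicate 1 in both media, and no passenger arm had an interval above 1.

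By the profile over the 4 libraries, the miRNAs most like hsa-miR-221-3p were not its relatives. Likeness was the root mean square difference of log2(CPM + 1) after each profile was centred on its mean, over 4 libraries and 153 candidates, and is a description with no test. The nearest were hsa-miR-19b-3p, of the miR-17-92 cluster, at 0.22 with 2, 1, 571 and 885 reads, then hsa-miR-16-5p, which with U6 was a reference in the study's RT-qPCR, at 0.37 with 70, 40, 15834 and 18955 reads, and hsa-miR-29b-3p at 0.48 with 6, 3, 1157 and 1232 reads. Hsa-miR-222-3p came 25th at 1.37, hsa-miR-221-5p 76th and hsa-miR-222-5p 123rd.

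For hsa-miR-222-3p the nearest were hsa-miR-19a-3p at 0.12 with 3, 2, 193 and 253 reads, hsa-let-7b-5p at 0.30 with 49, 37, 4708 and 3358 reads, and hsa-miR-15b-3p at 0.31 with 1, 1, 73 and 107 reads. Its seed partner hsa-miR-221-3p came 68th. These measures rest on the step between the replicates, which all of these miRNAs showed in the same direction, and on 3 or fewer reads in replicate 1 for hsa-miR-19b-3p, hsa-miR-19a-3p and hsa-miR-15b-3p.

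Next, 231 -G EV was compared with 231 EV over both replicates, to ask whether glucose starvation altered the family in EVs. No arm was called. In the quasi-likelihood test of edgeR with the replicate as a block, 384 miRNAs were tested and 0 passed an adjusted p under 0.05 with an absolute log2 fold change above 1 (0%), while 5 had an unadjusted p under 0.05. DESeq2 called 0 with 6 at an unadjusted p under 0.05, and limma on log2(CPM + 1) called 0 with 13.

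The log2 fold change of hsa-miR-221-3p was -0.01 (SE 0.92), with an edgeR Benjamini-Hochberg adjusted p of 0.999. Hsa-miR-222-3p stood at 0.16 (SE 1.04) and hsa-miR-221-5p at -0.06 (SE 1.32), with the same edgeR adjusted p. These errors leave room for changes of more than 2-fold either way, so no change was detectable in these 3 arms at this depth and replication. Hsa-miR-222-5p had the lowest estimate of the 4, -1.86 (SE 1.65, edgeR p 0.248 before and 0.999 after adjustment).

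Restricting edgeR to the 154 miRNAs above 0 in all 4 libraries gave hsa-miR-222-5p an unadjusted p of 0.0121 and an adjusted p of 0.932. Over 8 alternative fits its adjusted p ran from 0.913 to 1.00, and no arm was called in any of them. The median log2 fold change of all 384 miRNAs was 0.20 with library totals and -0.14 with TMM scaling, and the share of miRNAs with a positive value was 60.2% and 43.2%. Under TMM the 4 arms all had negative estimates, and hsa-miR-222-3p, at -0.14, lay on that median. An exact permutation test of 2 against 2 libraries that ignores the replicate block cannot go below p = 0.333.

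Within a replicate the reads of 231 -G EV and 231 EV were compared by Fisher's exact test, which compares libraries and not media. In replicate 2, hsa-miR-221-3p went from 4346 reads in 231 EV to 4463 in 231 -G EV, and the ratio of levels was 1.35 (exact 95% interval 1.30 to 1.41, adjusted p = 1.03e-44 by Fisher's exact test). Hsa-miR-222-3p went from 399 to 465 reads, a ratio of 1.53 (1.34 to 1.76, adjusted p = 4.20e-09 by Fisher's exact test). Both guide arms were thus higher in the glucose-free library, and they were 2 of the 61 miRNAs called higher, when 9.87% of the 618 tested were called higher.

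Both passenger arms had ratios below 1 in replicate 2, and only that of miR-222 was called. Hsa-miR-221-5p went from 44 to 24 reads, a ratio of 0.718 (0.418 to 1.21, adjusted p = 0.555 by Fisher's exact test). Hsa-miR-222-5p went from 16 to 2 reads, a ratio of 0.165 (0.0184 to 0.700), and was called lower at an adjusted p of 0.0387 by Fisher's exact test, when 8.74% of miRNAs were. This call rests on 2 reads in 231 -G EV.

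In replicate 1 no arm was called, when 7.91% of the 670 miRNAs tested were called higher and 1.79% lower. Hsa-miR-221-3p went from 11 to 6 reads, a ratio of 0.643 (0.195 to 1.90, adjusted p = 0.869 by Fisher's exact test). Hsa-miR-222-3p went from 7 to 4 reads, a ratio of 0.674 (0.145 to 2.65, adjusted p = 0.961 by Fisher's exact test). With library totals the intervals of both guide arms held the ratios of 1.35 and 1.53 seen in replicate 2 as well as 1.

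Hsa-miR-222-5p went from 5 to 2 reads in replicate 1, a ratio of 0.472 (0.0449 to 2.88, adjusted p = 0.869 by Fisher's exact test). Its interval held 1, so no direction was resolved on these reads. Hsa-miR-221-5p had 2 and 3 reads, both at or under the limit of 3, so no ratio is given.

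The denominator bears on these ratios. Hsa-miR-182-5p held 51.0% of the reads in 231 EV of replicate 1, against 2.73% in 231 -G EV of that replicate and 0.254% and 0.250% in replicate 2. With its reads left out of the totals, the ratios of replicate 1 became 0.324 (0.0985 to 0.956) for hsa-miR-221-3p, 0.340 (0.0729 to 1.34) for hsa-miR-222-3p and 0.238 (0.0226 to 1.45) for hsa-miR-222-5p. These intervals no longer held the 1.35 of hsa-miR-221-3p or the 1.53 of hsa-miR-222-3p in replicate 2. No arm was then called, when 2.69% of 669 miRNAs were called higher and 5.08% lower, and the lowest p of the 3 was that of hsa-miR-221-3p, 0.0240 before and 0.223 after adjustment by Fisher's exact test.

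Hsa-miR-16-5p, which along with U6 served as a reference for RT-qPCR in the study, rose within replicate 2 from 7.04% to 11.1% of the reads and went from 0.380% to 0.256% in replicate 1. Set against its reads in replicate 2, hsa-miR-221-3p was lower in the glucose-free library, at 0.858 (0.823 to 0.895, adjusted p = 1.58e-09 by Fisher's exact test), and hsa-miR-222-3p was at 0.974 (0.850 to 1.12, adjusted p = 0.901). The rise of hsa-miR-221-3p thus turned direction with this reference and that of hsa-miR-222-3p was lost. Both 5p arms were then called lower, hsa-miR-221-5p at 0.456 (0.265 to 0.766, adjusted p = 0.0111 by Fisher's exact test) and hsa-miR-222-5p at 0.104 (0.0116 to 0.444, adjusted p = 0.00128 by Fisher's exact test). With this reference 21.2% of miRNAs were called lower and 1.78% higher. In replicate 1 no arm was called against hsa-miR-16-5p, when 0.747% of miRNAs were called lower and 9.42% higher.

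**Figure D3:**
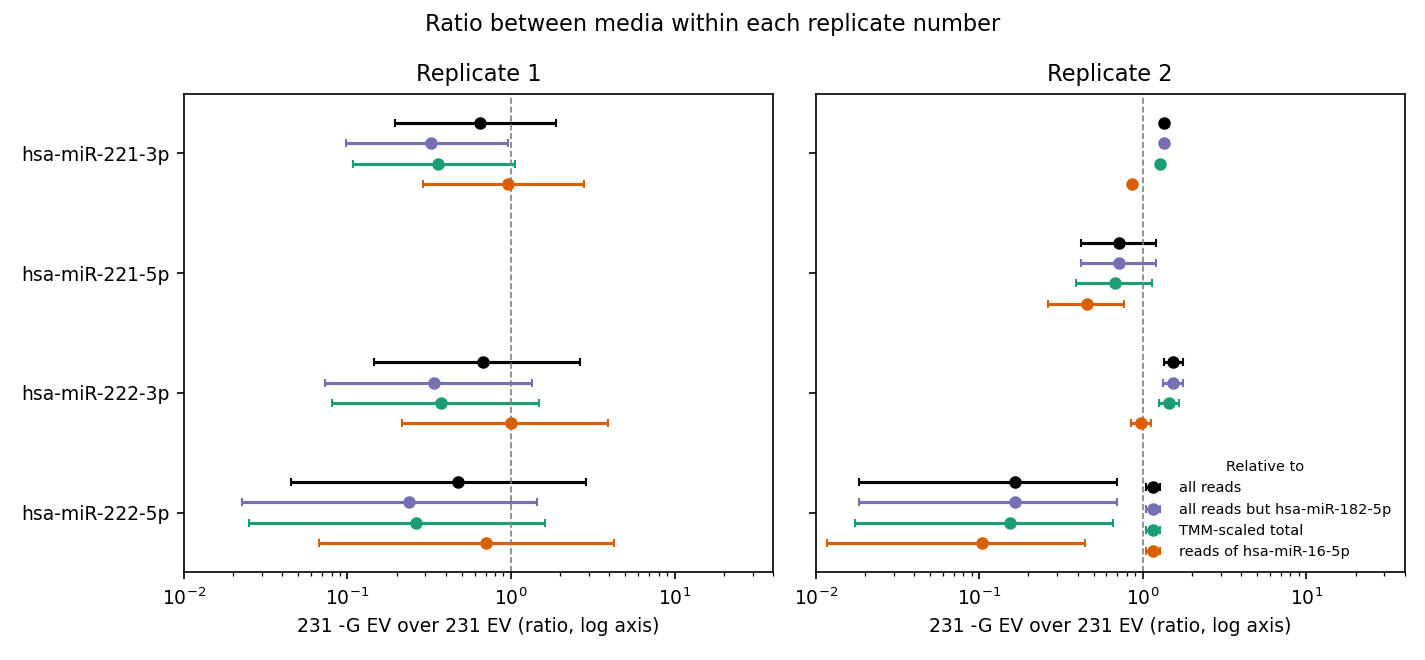
Ratio of 231 -G EV to 231 EV (log axis) for each arm in replicate 1 on the left and replicate 2 on the right, with exact 95% intervals, relative to 4 denominators shown by colour. In replicate 2 hsa-miR-221-3p was at 1.35 against all reads and at 0.858 against hsa-miR-16-5p, hsa-miR-222-5p was below 1 in every case, and hsa-miR-221-5p is not drawn for replicate 1, where it had 2 and 3 reads.

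An exact test stratified by replicate pooled both pairs for 295 miRNAs with a read in each. The common odds ratio was 1.36 (1.30 to 1.42) for hsa-miR-221-3p, at an adjusted p of 9.46e-45 by this exact test. For hsa-miR-222-3p it was 1.52 (1.33 to 1.74), at an exact adjusted p of 3.82e-09. These were 2 of the miRNAs called higher, which made up 24.1% of those tested. Hsa-miR-222-5p was called lower at 0.243 (0.0606 to 0.720, exact adjusted p = 0.0127), when 14.6% were, and hsa-miR-221-5p was not called at 0.767 (0.458 to 1.26, exact adjusted p = 0.483).

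These calls depended on the denominator. Against the reads of hsa-miR-16-5p the same exact test turned hsa-miR-221-3p to lower, at 0.858 (adjusted p = 9.14e-10), and hsa-miR-222-3p was no longer called, at 0.974 (exact adjusted p = 0.829). Hsa-miR-221-5p was then called lower, at 0.511 (exact adjusted p = 0.0171), and hsa-miR-222-5p stayed lower, at 0.187 (exact adjusted p = 0.00240), when 31.6% of miRNAs were called lower and 8.5% higher.

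For the 3p arms nearly all reads behind the common odds ratios were from replicate 2, whereas hsa-miR-222-5p had 5 and 2 reads in replicate 1 beside 16 and 2 in replicate 2. An exact test of equal odds ratios in the pairs was called for none of the 4 arms, when 13.9% of miRNAs were called, with adjusted p of 0.4999 for hsa-miR-221-3p, 0.673 for hsa-miR-222-3p, 0.847 for hsa-miR-221-5p and 0.986 for hsa-miR-222-5p. Without the reads of hsa-miR-182-5p the p of hsa-miR-221-3p in this exact test was 0.00572 before and 0.0623 after adjustment, and that of hsa-miR-222-3p 0.0149 and 0.129, against 0.149 and 0.226 before adjustment with library totals. Neither was called, when 8.16% of 294 miRNAs were.

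The study's threshold of 1.5-fold was then asked of both replicates, with 1 CPM added to each level. Hsa-miR-222-5p, on 5 and 2 reads in replicate 1 and 16 and 2 in replicate 2, was the only member that passed, as lower in 231 -G EV with folds of 0.474 and 0.176. Both 231 -G EV counts were under the limit of 3 reads. With 3 reads in their place the folds would be 0.709 and 0.257, or 1.41-fold and 3.89-fold lower, and replicate 1 would miss the threshold. The exact intervals of the ratio, 0.0449 to 2.88 in replicate 1 and 0.0184 to 0.700 in replicate 2, also allow a miss in either. Of all 539 miRNAs, 6.68% passed as lower and 7.24% as higher. No member passed as higher. Hsa-miR-222-3p passed upward in replicate 2 alone, at 1.53, and hsa-miR-221-3p passed downward in replicate 1 alone, at 0.644. Hsa-miR-221-5p passed upward in replicate 1 alone, on 2 and 3 reads, both at or under the limit.

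Shares inside 1 library do not depend on its total, so the balance of the arms was read next. The 3p share of miR-221 was 84.6% (57.8 to 95.7) and 66.7% (35.4 to 87.9) in 231 EV and 231 -G EV of replicate 1, on 13 and 9 reads. In replicate 2 it was 98.998% (98.7 to 99.3) and 99.5% (99.2 to 99.6), on 4390 and 4487 reads. The guide arm outnumbered the passenger arm by 98.8 to 1 and 186 to 1 in replicate 2. No such ratio is given for replicate 1, where the passenger arm had 2 and 3 reads.

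For miR-222 the 3p share was 58.3% (32.0 to 80.7) and 66.7% (30 to 90.3) in replicate 1, on 12 and 6 reads. In replicate 2 it was 96.1% (93.8 to 97.6) in 231 EV and 99.6% (98.5 to 99.9) in 231 -G EV, on 415 and 467 reads. Both hairpins were thus nearly pure 3p in replicate 2, while the intervals in replicate 1 reached down to 35.4% for miR-221 and 30% for miR-222.

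Between the preparations the 3p share was higher in replicate 2 for both hairpins and both media. Adjusted over all hairpins with both arms and at least 5 reads in each library, the Fisher's exact p of miR-222 was 0.00131 in 231 EV and 0.00362 in 231 -G EV. That of miR-221 was 0.000113 in 231 -G EV and missed the threshold in 231 EV, at 0.0606 (0.00774 before adjustment). Adjusted over the 20 share comparisons planned for these hairpins, the p of miR-221 in 231 EV was past the threshold, at 0.0258. Other hairpins differed as well. In 231 EV 6.38% of 47 hairpins were called for a higher 3p share in replicate 2 and 4.26% for a lower one, and in 231 -G EV 14% of 50 and 12%.

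Between the media, the passenger share of miR-222 fell in replicate 2 from 3.86% in 231 EV to 0.428% in 231 -G EV, on 16 and 2 reads (adjusted p = 0.00291 by Fisher's exact test over 96 hairpins with both arms and enough reads). That of miR-221 went from 1.00% to 0.535%, on 44 and 24 reads, and missed the threshold at an adjusted p of 0.0725 by the same exact test (0.0143 before adjustment). Adjusted over the 20 share comparisons planned for these hairpins, the p of miR-221 was past the threshold, at 0.0359. Of the 96 hairpins, 11.5% were called lower for the minor arm and 7.29% higher. In replicate 1 the Fisher's exact p of the arm share between media was 0.609 for miR-221 and 1 for miR-222. Whether the effect of the medium on the arm share differed between replicates was tested directly, with exact p of 0.264 for miR-221 and 0.188 for miR-222 before adjustment.

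A lower minor arm share in 231 -G EV was also seen in other hairpins. In replicate 2, 57 of 96 hairpins had a lower minor arm share in 231 -G EV and 39 a higher one, and among the 38 hairpins whose minor arm was 5p, as in miR-221 and miR-222, 21 were lower. Of those 38, 5 were called lower and 1 higher, and of the 58 whose minor arm was 3p, 6 were called in each direction. In replicate 1 there were 19 hairpins with enough reads, of which 13 were lower and 0 were called, and neither miR-221 nor miR-222 was among them.

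**Figure D4:**
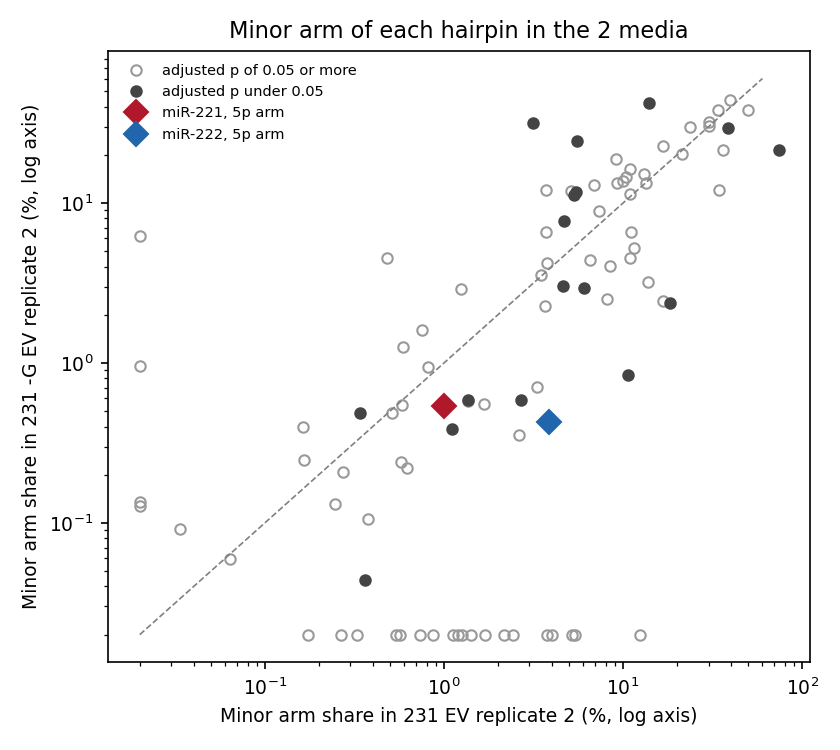
Share of the minor arm (%, log axes) of 96 hairpins in 231 -G EV against 231 EV of replicate 2. Diamonds mark miR-221 in red and miR-222 in blue, filled whatever their adjusted p. Among the circles, filled ones have an adjusted p under 0.05. The dashed line is at equal shares, and 23 hairpins with a share under 0.02% are drawn at that value. MiR-222 lay well under the line, at 3.86% and 0.428%, and miR-221 nearer to it, at 1.00% and 0.535%.

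The 2 hairpins were set against the others with at least 20 reads in a library. Of the hairpins in replicate 2, 37.2% of 121 in 231 EV and 36.6% of 112 in 231 -G EV were mostly 3p. Of the others, 88.3% and 83.8% had a lower 3p share than miR-221, and 78.3% and 84.7% a lower one than miR-222. Most of these others were mostly 5p, so a hairpin that is mostly 3p ranks high by this measure. By the share of the larger arm, whichever it was, the median hairpin had 97.6% in 231 EV and 99.4% in 231 -G EV of replicate 2. MiR-221 was above the first median, at 98.998%, and close to the second, at 99.5%, and miR-222 was below the first, at 96.1%, and close to the second, at 99.6%. In replicate 1 both hairpins were under 20 reads themselves, and in each library the same count of other hairpins, 56.5% in 231 EV and 58.5% in 231 -G EV, lay below either.

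The balance between the seed partners was read in the same way. Hsa-miR-221-3p made up 61.1% (38.6 to 79.7) and 60% (31.3 to 83.2) of the 3p reads of the family in replicate 1, on 18 and 10 reads. In replicate 2 it made up 91.6% (90.8 to 92.3) in 231 EV and 90.6% (89.7 to 91.3) in 231 -G EV. The partners thus stood near 1.5 to 1 in replicate 1, and at 10.9 to 1 and 9.60 to 1 in replicate 2.

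No difference between media was detectable in that balance, with an exact Fisher p of 1 in replicate 1 and 0.0806 in replicate 2. Between preparations it differed in both media, with an adjusted p of 0.00216 in 231 EV and 0.0303 in 231 -G EV (Fisher's exact test over the 20 comparisons). Among the 5p reads, the share of hsa-miR-221-5p was 28.6% (8.22 to 64.1), 60% (23.1 to 88.2), 73.3% (61.0 to 82.9) and 92.3% (75.9 to 97.9), on 7, 5, 60 and 26 reads. None of its comparisons passed the adjustment, and the lowest adjusted exact p was 0.0605, between preparations in 231 EV.

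**Figure D5:**
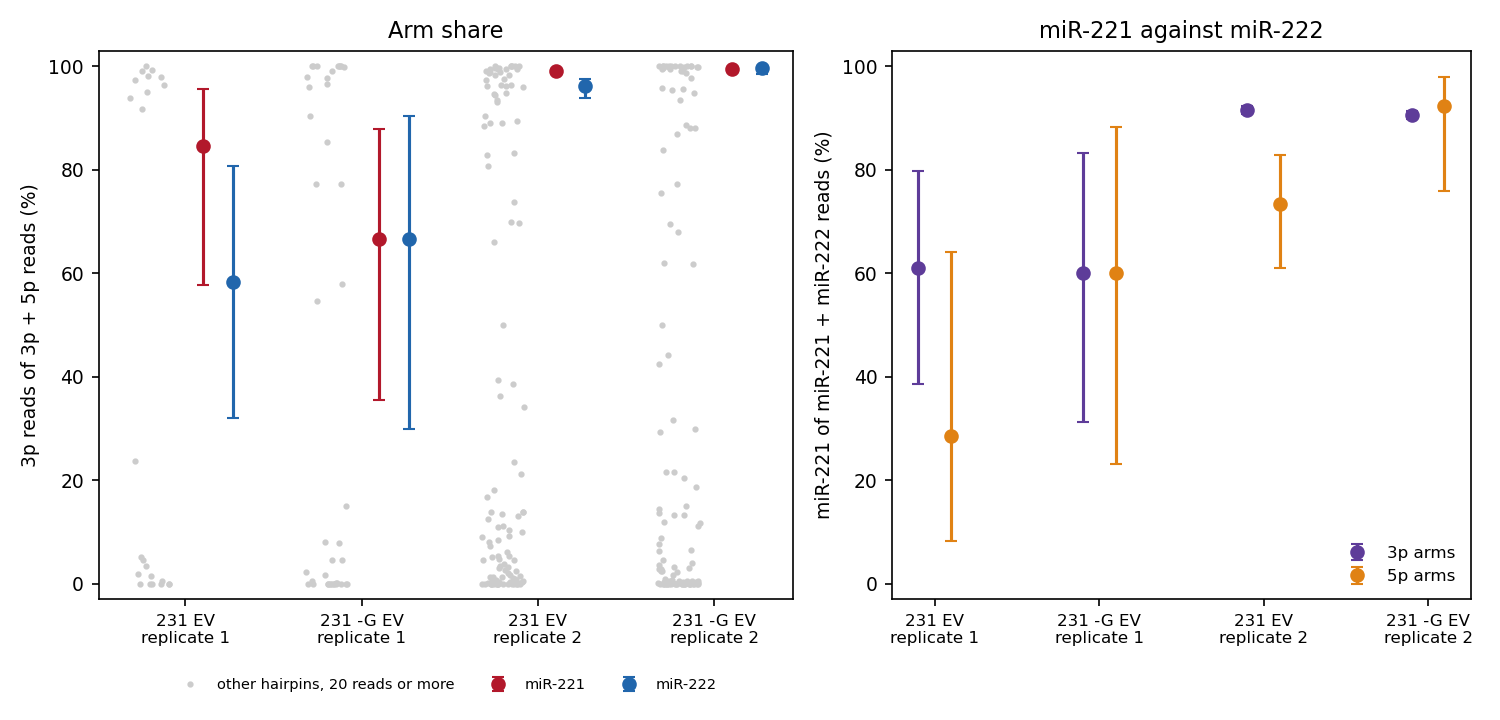
Left, 3p share (%) of miR-221 in red and miR-222 in blue with 95% Wilson intervals in each library, beside all other hairpins with at least 20 reads in grey. Right, share of miR-221 (%) among miR-221 and miR-222 reads for the 3p arms in purple and the 5p arms in orange; the 3p value was near 60% in replicate 1 and at 91.6% and 90.6% in replicate 2.

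Summed by arm, the 3p reads of the family went from 4745 to 4928 in replicate 2, a ratio of levels of 1.37 (exact 95% interval 1.31 to 1.42), and the 5p reads from 60 to 26, a ratio of 0.570 (0.346 to 0.918). In replicate 1 the 3p sum went from 18 to 10 reads, a ratio of 0.655 (0.2702 to 1.497), and the 5p sum from 7 to 5, a ratio of 0.843 (0.211 to 3.08). Against library totals the arms parted in replicate 2, with the guide sum above 1 and the passenger sum below it. Against hsa-miR-16-5p both sums were below 1 there, the 3p sum at 0.868 (0.833 to 0.903) and the 5p sum at 0.362 (0.219 to 0.582). In replicate 1 the intervals of both sums held 1 with library totals. Without the reads of hsa-miR-182-5p the 3p sum of replicate 1 was at 0.330 (0.136 to 0.755), below 1, and the 5p sum at 0.425 (0.106 to 1.55). A share of reads does not tell fewer EVs from less of a miRNA per EV.

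The files hold no mRNA, so the basal-like state of the cells was read from miRNAs only. A list of 8 other miRNAs known from basal-like or mesenchymal breast cancer took 0.538%, 1.15%, 3.87% and 2.70% of the reads, with 6 of 8 detected in 231 EV of replicate 1 and all 8 elsewhere. Hsa-miR-100-5p supplied most of it in replicate 2, with 8076 and 4264 reads against 11 and 29 in replicate 1. Hsa-miR-155-5p and hsa-miR-135b-5p were at 0 in 231 EV of replicate 1. In 231 -G EV every member but hsa-miR-100-5p had a smaller share in replicate 2. So did hsa-miR-9-5p (36 and 70 reads), hsa-miR-10b-5p (24 and 59) and hsa-miR-31-5p (4 and 3) in 231 EV. The others had a larger share in replicate 2 there or were at 0 in replicate 1. With the reads of hsa-miR-182-5p left out, the shares of the list in replicate 1 were 1.10% (0.903 to 1.33) and 1.18% (1.02 to 1.36), with overlapping intervals.

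A list of 9 epithelial or luminal miRNAs, among them the miR-200 family that holds back mesenchymal transition, took 0.114%, 0.673%, 0.198% and 0.0948%. Without the reads of hsa-miR-182-5p its shares in replicate 1 were 0.233% (0.152 to 0.356) and 0.692% (0.572 to 0.837), with intervals apart. In replicate 2 it went the other way, from 0.198% (0.180 to 0.217) to 0.0948% (0.0813 to 0.111) of all reads, also with intervals apart. Its highest members were hsa-miR-200b-3p in replicate 1, with 9 and 42 reads, and hsa-miR-342-3p in replicate 2, with 247 and 125. In replicate 2 the family of miR-221 and miR-222 took the larger share in both media, and in 231 -G EV of replicate 1 the epithelial list did. In 231 EV of replicate 1 they were not separated, at 0.136% (0.0921 to 0.201) and 0.114% (0.0747 to 0.174). Of both lists 0 were called by edgeR, with median log2 fold changes of 0.12 for the basal-like and 0.24 for the epithelial list beside 0.20 for all 384 miRNAs.

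The sum over a list of 6 blood cell or serum miRNAs stood apart by preparation. It took 20.1% of 231 EV and 43.1% of 231 -G EV in replicate 1, and 0.625% and 0.240% in replicate 2, with 5 of 6 detected in the first library and 6 of 6 in the rest. Hsa-miR-451a, a red cell miRNA, alone held 19.4%, 40.8%, 0.131% and 0.0398%, and hsa-miR-150-5p was at 0 in 231 EV of replicate 1. Hsa-miR-486-5p (96, 295, 143 and 33 reads) and hsa-miR-144-3p (13, 13, 52 and 15) also had larger shares in replicate 1 in both media. Hsa-miR-223-3p, the largest member in replicate 2, went the other way, with 3, 2, 502 and 158 reads. Hsa-miR-150-5p (0, 6, 117 and 47) and hsa-miR-122-5p (17, 48, 298 and 90) had larger shares in replicate 2 in 231 EV only. Between the media the list had opposite directions in the replicates, and without the reads of hsa-miR-182-5p its shares in replicate 1 were 41.1% (40.1 to 42.1) and 44.3% (43.6 to 45.1). EdgeR called 0 of the 6, with a median log2 fold change of -0.10. In replicate 1 the sum of the list, most of it hsa-miR-451a, was high. The 3p arms of miR-221 and miR-222 were low there, as was hsa-miR-223-3p of the list. The part of the list in the levels of these arms was not tested.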

How the data were processed

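Small RNA of EVs was sequenced in 4 libraries. Groups were taken from the sample titles. The authors deposited whole-number read counts per miRNA, with a table for each replicate side by side. Beside them stand deposited CPM values for replicate 1 and deposited TPM values for replicate 2, and both equalled the count divided by the library total times 1000000, with no length term. The submitters' processing notes name FastQC, cutadapt, Bowtie, Bowtie2, StringTie, edgeR and hg38, and the study's methods describe trimming, removal of other RNA classes against Rfam and matching to miRBase, without separating the preparations. The labels also name a TruSeq kit for the RNA of replicate 2.

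Counts were tested with edgeR 4.0.16 (R 4.3.3), with the replicate number as a block and no scaling beyond the library totals, over 384 miRNAs listed for both replicates and above 0 in at least 2 libraries. The block came from the labels, which tie the number to the preparation. After centring on the group means, libraries of the same number correlated at 0.59 (Pearson, across the 384 miRNAs). The SE of a log2 fold change was its size over the square root of F. DESeq2 1.42.0 and limma 3.58.1 were alternatives. Reads were compared by Fisher's exact test, by an exact test stratified by replicate and by an exact test of equal odds ratios (Zelen), two-sided, with SciPy 1.17.1 and R, and p-values were adjusted by Benjamini-Hochberg over all miRNAs tested. Shares have 95% Wilson intervals and ratios exact conditional ones. Arm shares were adjusted over the 20 share comparisons and, as an alternative chosen after seeing the data, over all hairpins with both arms (at least 20 reads in each library between media, 5 between preparations). Other denominators of the arm sums were also added after seeing the data. The edgeR and read tests were tested on simulated data.

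Named miRNAs were the 4 members, the 3 nearest by profile to each 3p arm, their neighbours in rank, miRNAs sharing a seed, the miRNAs used for scaling and 3 marker lists. Members, lists and tests were chosen with earlier results of these data known, and no result is independent support for a pattern already seen in them. Alternatives in scaling, filter, pseudocount, block, denominator and tool were computed.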

Additional observations from a re-analysis of the deposited data

How the results depend on the processing

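For 37 values, 133 alternatives were computed beside those that leave out a replicate, and 111 kept their result. For a tested value this meant the same side of the threshold and no change of direction, for a ratio with TMM, which has no test, a value inside the interval with library totals, and for a count a value within 1.5 times. Among these, in replicate 1, hsa-miR-221-5p was at 0.985 with TMM and hsa-miR-222-3p at 1 against hsa-miR-16-5p, so neither kept a direction. No arm was called by edgeR, DESeq2 or limma in any of them. The number of miRNAs called rose from 0 to 1 with totals without hsa-miR-182-5p (hsa-miR-449c-5p) and with every miRNA with a read (hsa-miR-206), both named after their values were seen. Without the replicate block the log2 fold change was 0.41 for hsa-miR-221-3p and 0.073 for hsa-miR-221-5p, against -0.01 and -0.06 with it, and the block changed no call. That of hsa-miR-221-5p was 0.17 and 0.16 with limma on log2(CPM + 1) and log2(CPM + 10). That of hsa-miR-222-3p turned to -0.14 with TMM, -0.12 without hsa-miR-182-5p and -0.10 with DESeq2. Leaving out a replicate gave -0.63 to 0.43 for hsa-miR-221-3p, -0.48 to 0.78 for hsa-miR-221-5p, -0.56 to 0.62 for hsa-miR-222-3p and -2.54 to -1.04 for hsa-miR-222-5p.

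Against hsa-miR-16-5p the ratio in replicate 2 was 0.858 for hsa-miR-221-3p, 0.456 for hsa-miR-221-5p and 0.974 for hsa-miR-222-3p, and the odds ratio over both replicates was 0.858, 0.511 and 0.974. In both tests the call of hsa-miR-221-3p turned from higher to lower, that of hsa-miR-222-3p was lost and hsa-miR-221-5p became called lower. With TMM the ratio of hsa-miR-221-3p in replicate 2 was 1.27. Without hsa-miR-182-5p that of hsa-miR-221-5p in replicate 1 was 0.892, on 2 and 3 reads. The odds ratio of the miR-221 arm share between media of replicate 2, 1.88, was past the threshold over 20 comparisons and not over 96 hairpins. The same held for that between preparations in 231 EV, 17.96, over 47 hairpins (adjusted p of 0.0258 and 0.0606 by Fisher's exact test). With a pseudocount of 100 CPM, 15 miRNAs passed the fold rule as higher, against 39, and 4 as lower, against 36, and with 10 CPM 18 passed as lower. In a single replicate, 117 to 182 miRNAs passed as higher and 101 to 156 as lower, 1 member passed as higher in each, and 1 to 2 members as lower. The cause of these shifts was not tested. Replicate 1 held 15 to 25 reads of the family a library, which limits every value from it.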
